A study of Mus musculus with 8 samples.

Results

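The 45 genes described here code for the core of the Wnt pathway. They are 19 Wnt ligands, 10 Frizzled receptors, the 2 co-receptors Lrp5 and Lrp6, 4 secreted Frizzled-related proteins (Sfrp), 4 Dickkopf proteins (Dkk), the 2 Axin scaffolds and the 4 Tcf/Lef transcription factors. They were taken by gene symbol from the 21938 protein-coding genes of the GENCODE M21 annotation. ATAC-seq, in which a transposase cuts open chromatin, gave 57124 consensus regions in medullary thymic epithelial cells (mTECs), and 113 of these were given to the 45 genes. A region went to a gene when it overlapped the gene body or the 10 kb on either side and when no other protein-coding gene in reach had a nearer transcription start.

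The mTECs came from the thymus of wild-type BL6N6 mice of 4 to 6 weeks of age and were sorted as CD45-negative, EpCAM-positive and CDR1-negative cells. They formed 4 groups of 2 biological replicates, which were Tspan8neg MHCIIlow, Tspan8neg MHCIIhigh, Tspan8pos MHCIIlow and Tspan8pos MHCIIhigh. Tspan8 is a tetraspanin that marks a subset of mTECs, and MHC class II rises as mTECs mature, although the MHCIIlow gate also holds late cells that have lost it. The per-sample read counts could not be tied to the labelled samples, so accessibility is not compared between the groups here, and every value below describes the region set of all 8 samples together.

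Wnt ligands are secreted proteins that bind a Frizzled receptor together with Lrp5 or Lrp6. In the canonical branch this stops the Axin complex from marking β-catenin for degradation, and β-catenin then joins Tcf/Lef factors on DNA and switches on target genes, Axin2 among them. Sfrp proteins bind the ligands, and Dkk proteins such as Dkk1 block the co-receptors. In the thymus, Wnt signals are known to act on both the epithelium and the developing T cells, and Wnt4 has been linked to expression of Foxn1, the master factor of thymic epithelium.

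The labelled cell type was checked against marker genes. A promoter region, defined here as a region whose centre lay between 1000 bases before and 100 bases after a start, was present at 10 of 10 mTEC markers, Epcam, Krt5, Aire and Tspan8 among them. It was present at 3 of 4 markers of cortical epithelium, the exception being Psmb11, which had no region. Among markers of other thymic cells it was present at 0 of 6 thymocyte genes, 0 of 4 fibroblast genes and 1 of 3 endothelial genes (Kdr), where 48.6% of all protein-coding genes had one. A region also covered the start of Pdgfra, a fibroblast gene. Regions of any kind were given to 2 of 6 thymocyte genes (Lck and Ptprc), 3 of 4 fibroblast genes and 2 of 3 endothelial genes, with 7 regions at Pecam1, and 69.9% of all protein-coding genes had one. Since most cortical markers had a promoter region too, the check does not separate mTECs from cortical epithelium. Epcam, Tspan8 and H2-Ab1 (MHC class II), all on the mTEC list, were also markers of the sort.

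Tcf/Lef factors bind DNA through a short word, and the sequences that carry it are shown because they are where the end of the pathway could meet its own genes. The words searched on both strands were CTTTGAA and CTTTGAT and CTTTGTA and CTTTGTT. A match describes the letters only and is not evidence of binding. The region over the start of Axin2 held 4 of them, more than any other region of the 45 genes, and it is shown first. It was singled out after its values were seen. Capitals mark the word, each sequence reads 5′ to 3′ on the strand of the word, and coordinates are of mm10, with sequence from the GRCm38 RefSeq assembly.
Axin2, 81 bases downstream of the start (chr11:108920417-108920443, plus strand): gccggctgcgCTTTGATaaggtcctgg
Axin2, 444 bases downstream of the start (chr11:108920780-108920806, plus strand): cggctcgcgcCTTTGAAgtgcacagtt
Axin2, 886 bases downstream of the start (chr11:108921222-108921248, plus strand): ggccggcgcgCTTTGATgtgcggggcg
Axin2, 906 bases downstream of the start (chr11:108921242-108921268, plus strand): cggggcggcgCTTTGAAgttggcaggc

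Of the other start regions, those of Fzd7, Lrp6, Tcf7 and Tcf7l2 each held 1 word. They are given so that the flanks can be compared with those at Axin2.
Fzd7, 404 bases upstream (chr1:59482007-59482033, minus strand): caatagcgcgCTTTGTTttctctgtgg
Lrp6, 439 bases upstream (chr6:134567339-134567365, minus strand): cgcaatggcaCTTTGATtttcctacgt
Tcf7, 357 bases upstream (chr11:52283358-52283384, minus strand): cccgcggtgcCTTTGATgttccgaccc
Tcf7l2, 15 bases downstream (chr19:55741886-55741912, plus strand): tcagcgccgcCTTTGAActgaaaagct

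Away from starts and UTRs, 4 regions with a word were short enough to be shown whole, and each had exactly 1. The Wnt5a region lay downstream of the gene, and those of Dkk2, Lrp6 and Tcf7l2 were in introns. Region starts are as deposited and could be 1 base too low if they were taken from a format that counts from 0.
Wnt5a (chr14:28533060-28533347, plus strand): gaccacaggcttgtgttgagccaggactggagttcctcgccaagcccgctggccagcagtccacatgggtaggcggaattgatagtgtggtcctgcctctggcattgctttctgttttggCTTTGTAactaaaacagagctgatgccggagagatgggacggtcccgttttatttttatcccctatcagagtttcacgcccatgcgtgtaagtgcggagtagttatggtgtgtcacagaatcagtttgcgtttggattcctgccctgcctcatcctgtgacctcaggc
Dkk2 (chr3:132125465-132125637, plus strand): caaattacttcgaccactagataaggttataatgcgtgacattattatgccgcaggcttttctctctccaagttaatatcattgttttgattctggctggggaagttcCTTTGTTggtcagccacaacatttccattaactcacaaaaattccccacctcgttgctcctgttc
Lrp6 (chr6:134500901-134501019, plus strand): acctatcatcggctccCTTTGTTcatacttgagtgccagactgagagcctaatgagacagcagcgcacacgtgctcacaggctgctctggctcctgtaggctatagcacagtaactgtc
Tcf7l2 (chr19:55860139-55860249, plus strand): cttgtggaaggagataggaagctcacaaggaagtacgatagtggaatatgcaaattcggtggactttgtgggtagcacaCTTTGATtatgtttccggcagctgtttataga

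Every Frizzled, co-receptor and Axin gene had a region over a start, every Tcf/Lef gene had one over or just upstream of a start, and so did some of the ligand and Sfrp genes and none of the Dkk genes. A start region, meaning a region in the promoter window or one that covered a start, was found at 10 of 10 Frizzled genes, 2 of 2 co-receptor genes, 2 of 2 Axin genes and 4 of 4 Tcf/Lef genes. It was found at 10 of 19 Wnt genes, at 2 of 4 Sfrp genes and at 0 of 4 Dkk genes. Over the 45 genes it was found at 30, and 59.6% of all protein-coding genes had one. The promoter window alone gave 24 of 45 genes (48.6% of all protein-coding genes) and coverage of a start gave 26 of 45 (56.4%). Any region at all was present at 39 of 45 genes (69.9%). These are counts with no test, since genes are not replicates of the experiment, and the small families leave wide room for counting error.

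**Figure D1:**
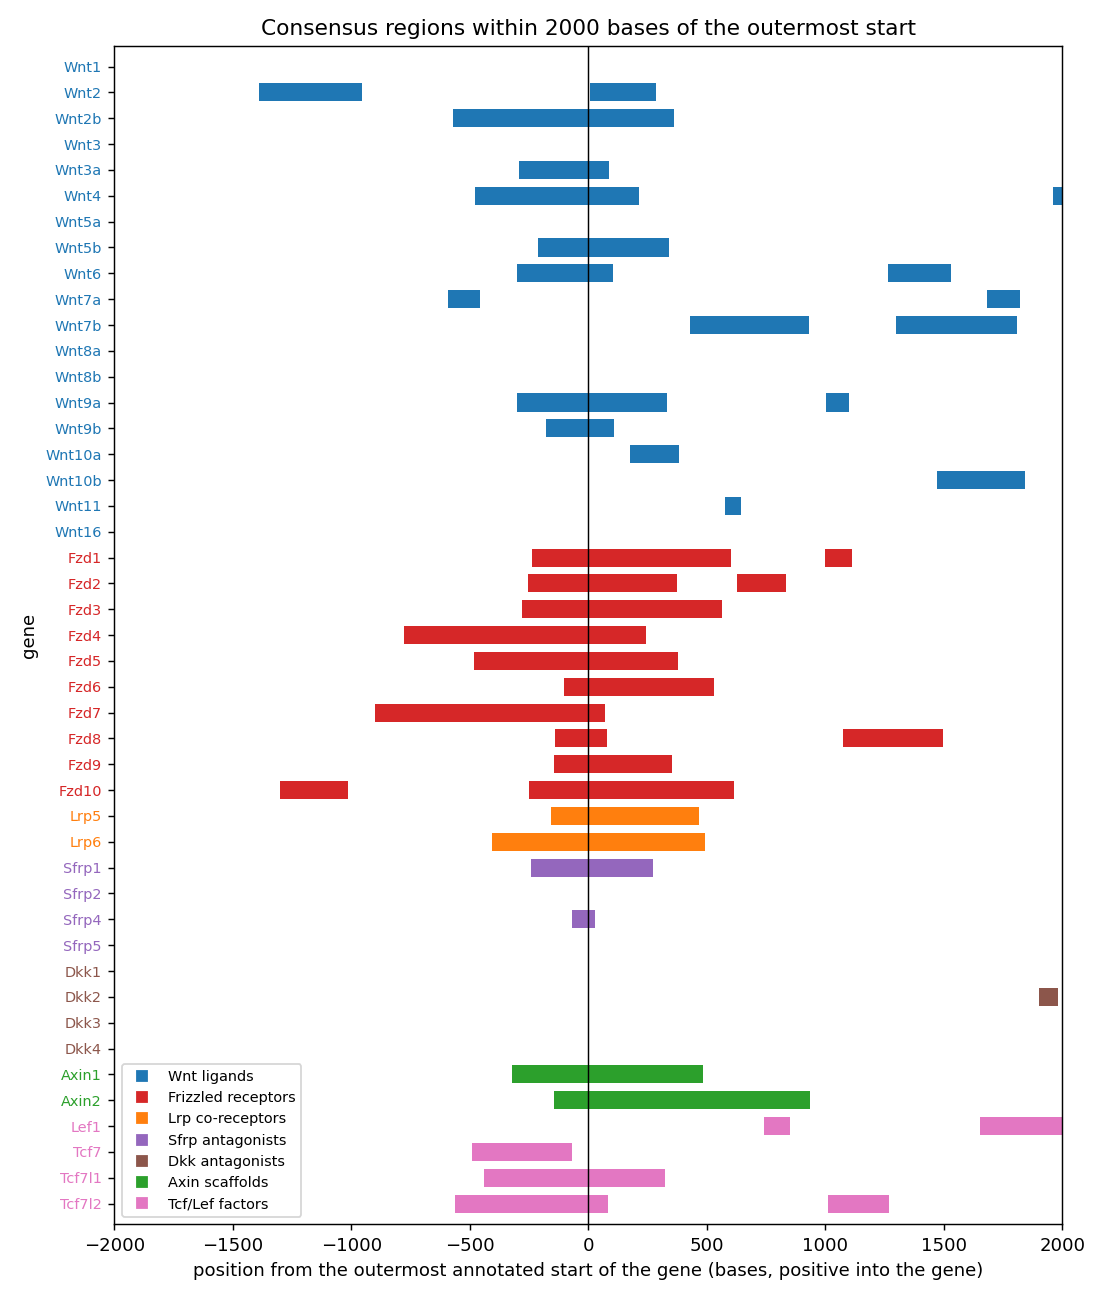
Consensus regions within 2000 bases of the outermost annotated start of each of the 45 genes, with the position in bases on the x axis (positive into the gene), 1 row for each gene and colours for the families. All 10 Frizzled genes have a bar across the start, while the rows of the Dkk genes have none there, and Wnt7b, a gene with several starts, has bars at inner starts.

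Among the Wnt ligands, 8 genes had a region over a start. The widest was at Wnt2b (934 bases, chr3:104961561-104962494). Wnt4, a ligand with a known part in thymic epithelium, had a region of 693 bases across its first exon (chr4:137277011-137277703). Wnt9a had one of 631 bases (chr11:59306628-59307258). These 3 were the widest start regions of the ligand genes, and all exceeded the median of 509 bases over all promoter regions. Most of the other ligand start regions, given below, were narrower than that median.

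Wnt5b, a ligand of the non-canonical branch, had a start region of 556 bases (chr6:119544006-119544561). Wnt7b had 2 regions at separate starts, of 511 bases (chr15:85580665-85581175) and 502 bases (chr15:85581544-85582045). Both also overlapped another annotated gene, AU022754. Narrower regions lay over the starts of Wnt6 (403 bases, chr1:74771592-74771994), Wnt3a (380 bases, chr11:59290667-59291046) and Wnt9b (285 bases, chr11:103749715-103749999).

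The other 2 ligands with a promoter region, Wnt7a and Wnt11, had a narrow one that did not reach a start. At Wnt7a it was 134 bases wide with its centre 524 bases upstream (chr6:91411821-91411954) and overlapped another annotated gene, Gm30437. At Wnt11 it was 124 bases wide with its centre 748 bases upstream of an inner start (chr7:98838036-98838159). Wnt2, Wnt10a and Wnt10b had a region just inside the gene, with the centre 145, 278 and 534 bases from a start, and at Wnt2 only 5 bases separated the edge of the region from the start. Wnt3, Wnt5a and Wnt8a had their closest centre at 2492, 2940 and 3952 bases from a start.

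No region at all was given to Wnt1, Wnt8b or Wnt16. The closest centre in the genome lay 13362 bases from the start of Wnt1, 19111 bases from that of Wnt8b and 17812 bases from that of Wnt16. A missing region shows only that no peak was called in the merged set, not that the chromatin was closed in every cell. Likewise, the set does not tell a region open in few cells of the sort from one open weakly in many.

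Each of the 10 Frizzled receptor genes had exactly 1 region over its start, and these regions ranged from 221 bases at Fzd8 to 1023 bases at Fzd4 (chr7:89403577-89404599). Fzd7 followed with 973 bases (chr1:59481523-59482495), Fzd10 with 864 bases (chr5:128600595-128601458) and Fzd5 with 861 bases (chr1:64737375-64738235). Fzd3, a receptor known from planar cell polarity, had 845 bases (chr14:65261900-65262744) and Fzd1 had 842 bases (chr5:4757433-4758274). The Fzd4 start region also overlapped the neighbouring gene Tmem135, and those of Fzd5, Fzd6 and Fzd10 overlapped other annotated genes. The width of these regions cannot be credited to the Frizzled gene alone from position.

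The start regions of Fzd6 (636 bases, chr15:39005929-39006564), Fzd2 (628 bases, chr11:102604141-102604768) and Fzd9 (497 bases, chr5:135250880-135251376) were narrower. At Fzd1, Fzd2, Fzd9 and Fzd10 the region ran from the promoter into the coding exon. The centre lay past the promoter window at Fzd1, Fzd3, Fzd9 and Fzd10, which is why the window alone found only 6 of the 10. Frizzled genes are short, with a median body of 5.25 kb, and had a median of 2 regions, equal to that of the 45 genes and above the median of 1 over all protein-coding genes.

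Both co-receptor genes had a region over the start. At Lrp6 it was 898 bases wide (chr6:134566476-134567373) and at Lrp5 it was 623 bases wide (chr19:3686100-3686722). Lrp6 had 4 more regions inside its 120.5 kb body, 3 of them in introns, and Lrp5 had 2, both in introns. Of 1925 protein-coding genes with bodies of 100 to 300 kb, 56.6% had fewer regions than Lrp6 and 33.2% had fewer than Lrp5, so neither stood out for its length.

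The 8 Sfrp and Dkk genes had 8 regions together. Their median was 1 region per gene, equal to the median of 1 over all protein-coding genes. Sfrp1 had a start region of 512 bases (chr8:23411261-23411772) and 1 more region in an intron. Sfrp4 had a single region of 95 bases across its start (chr13:19623036-19623130), the narrowest start region of the 45 genes. Sfrp2 and Sfrp5 had none, with the closest centre 23719 and 23923 bases from a start.

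None of the 4 Dickkopf genes had a start region. Dkk1, the best studied inhibitor of Lrp5 and Lrp6, had no region, and the nearest centre was 73414 bases away, farther than for any other of the 45 genes. Dkk2 had 3 regions in introns, the nearest 1941 bases from the start, and Dkk3 had 1 in an intron, 18153 bases from the start. Dkk4 had 1 region of 282 bases 6564 bases upstream. The 5 Dkk regions all lay away from starts and had a median width of 153 bases. Over the 45 genes, regions away from starts had a median of 177 bases. The median of 455 bases for the 19 Frizzled regions includes their start regions, so it is not a like comparison.

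The Axin genes both had a wide start region. At Axin1, the constitutive scaffold of the destruction complex, it was 809 bases wide and the only region of the gene (chr17:26138364-26139172). At Axin2, a target gene that restrains the pathway in turn, it was 1081 bases wide (chr11:108920202-108921282), wider than any other region of the 45 genes and than 94.4% of all promoter regions. It covered the start, the untranslated first exon and part of the first intron, and its centre lay 393 bases downstream. Axin2 had 2 more regions, 1 over a coding exon (112 bases) and 1 downstream of the gene (160 bases).

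All 4 Tcf/Lef genes had a promoter region. Tcf7l1, known mainly as a repressor, had the widest (764 bases, chr6:72788930-72789693). Tcf7l2 had 2, of 647 bases (chr19:55741257-55741903) and of 221 bases at an inner start (chr19:55895452-55895672). Tcf7 and Lef1 are best known from T cells. Their promoter regions were 422 bases (chr11:52283084-52283505) and 428 bases wide (chr3:131112122-131112549), and neither covered a start, with centres 280 and 462 bases upstream, the latter of an inner start of Lef1. The Tcf7 region lay outside the gene body and overlapped another annotated gene, A630014C17Rik, so its gene cannot be told from position. Of 6 thymocyte marker genes, 0 had a start region, compared with 59.6% of all protein-coding genes, while Lck and Ptprc had regions elsewhere. Whether T cells contributed to the Tcf7 and Lef1 regions was not tested.

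The number of regions differed widely between genes. Of the 45 genes, 6 had none, 10 had 1, 12 had 2, 8 had 3 and 9 had more. Tcf7l2 led with 12, followed by Tcf7l1 and Wnt10a with 7 each, Wnt5b with 6 and Wnt2b, Lrp6 and Lef1 with 5 each. The Tcf/Lef genes are long, with a median body of 138.4 kb. Among the 1925 genes of 100 to 300 kb the median was 4 regions, and 91.3% had fewer than Tcf7l2, 72.2% fewer than Tcf7l1, 65.9% fewer than Wnt5b and 56.6% fewer than Lef1.

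Wnt10a stood out for its length. Its body is 12.7 kb, and 99.7% of the 4005 protein-coding genes of 10 to 20 kb had fewer than its 7 regions, with a median of 1. None of the 7 was a start region. They lay from 7109 bases upstream (570 bases wide, chr1:74784123-74784692) to 16798 bases downstream (153 bases, chr1:74808238-74808390), and the widest lay beyond the end of the gene (786 bases, chr1:74806573-74807358). The region farthest upstream overlaps the neighbouring gene Wnt6, so its gene cannot be told from position.

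**Figure D2:**
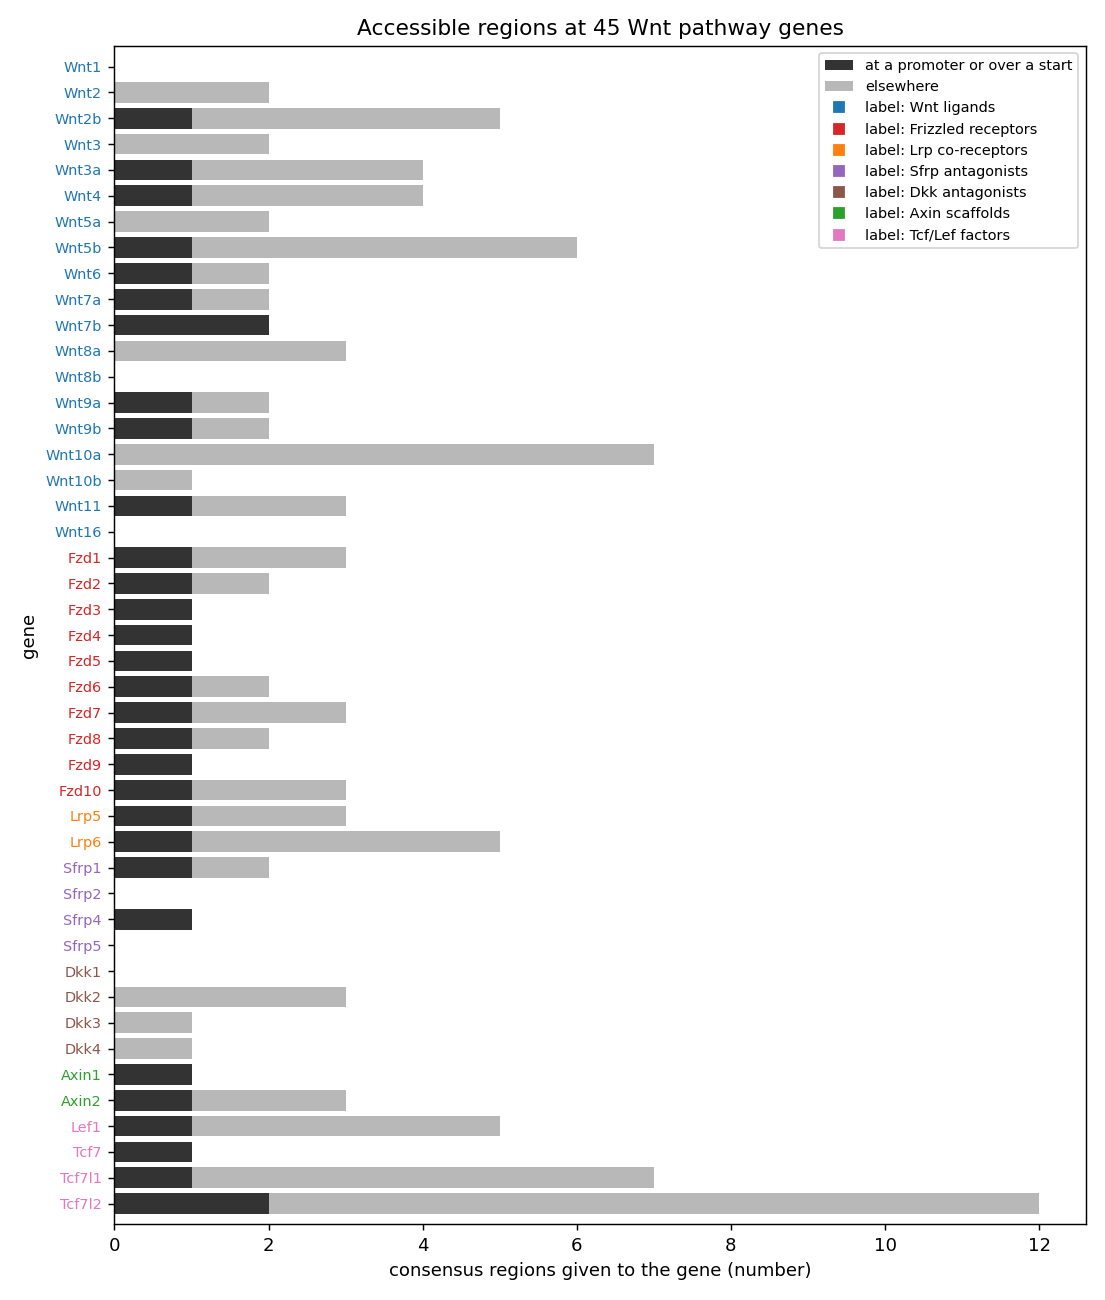
Number of consensus regions given to each of the 45 genes (x axis), with regions at a promoter or over a start in dark grey and all others in light grey, and gene labels coloured by family. Tcf7l2 has the longest bar with 12 regions, Wnt10a has 7 with no dark part, and 6 genes have no bar.

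The 12 regions of Tcf7l2 spanned 162.5 kb, from upstream of the gene into its body of 191.8 kb. Besides the 2 promoter regions there were 8 in introns, 1 over a coding exon 617 bases from a start and 1 lying 8613 bases upstream, and their widths ranged from 72 to 647 bases. At Tcf7l1, 5 of the 7 regions lay 74553 to 157598 bases inside the gene, and the widest of these measured 544 bases (chr6:72659915-72660458). At Wnt5b, 2 wide intronic regions followed the start region, of 617 bases (chr6:119535999-119536615) and 478 bases (chr6:119526540-119527017), and both held a TCF/LEF word.

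Lef1 had regions of 231, 396 and 177 bases in introns, 26693, 30741 and 95873 bases from a start, besides those near its first exons. At Wnt2b, 3 narrow regions of 87 to 107 bases lay close together downstream of the gene, 22841 to 23822 bases from the start, and a region of 419 bases lay 6118 bases upstream. At Lrp6, the intronic region farthest from the start that held a word was the one of 119 bases shown above.

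**Figure D3:**
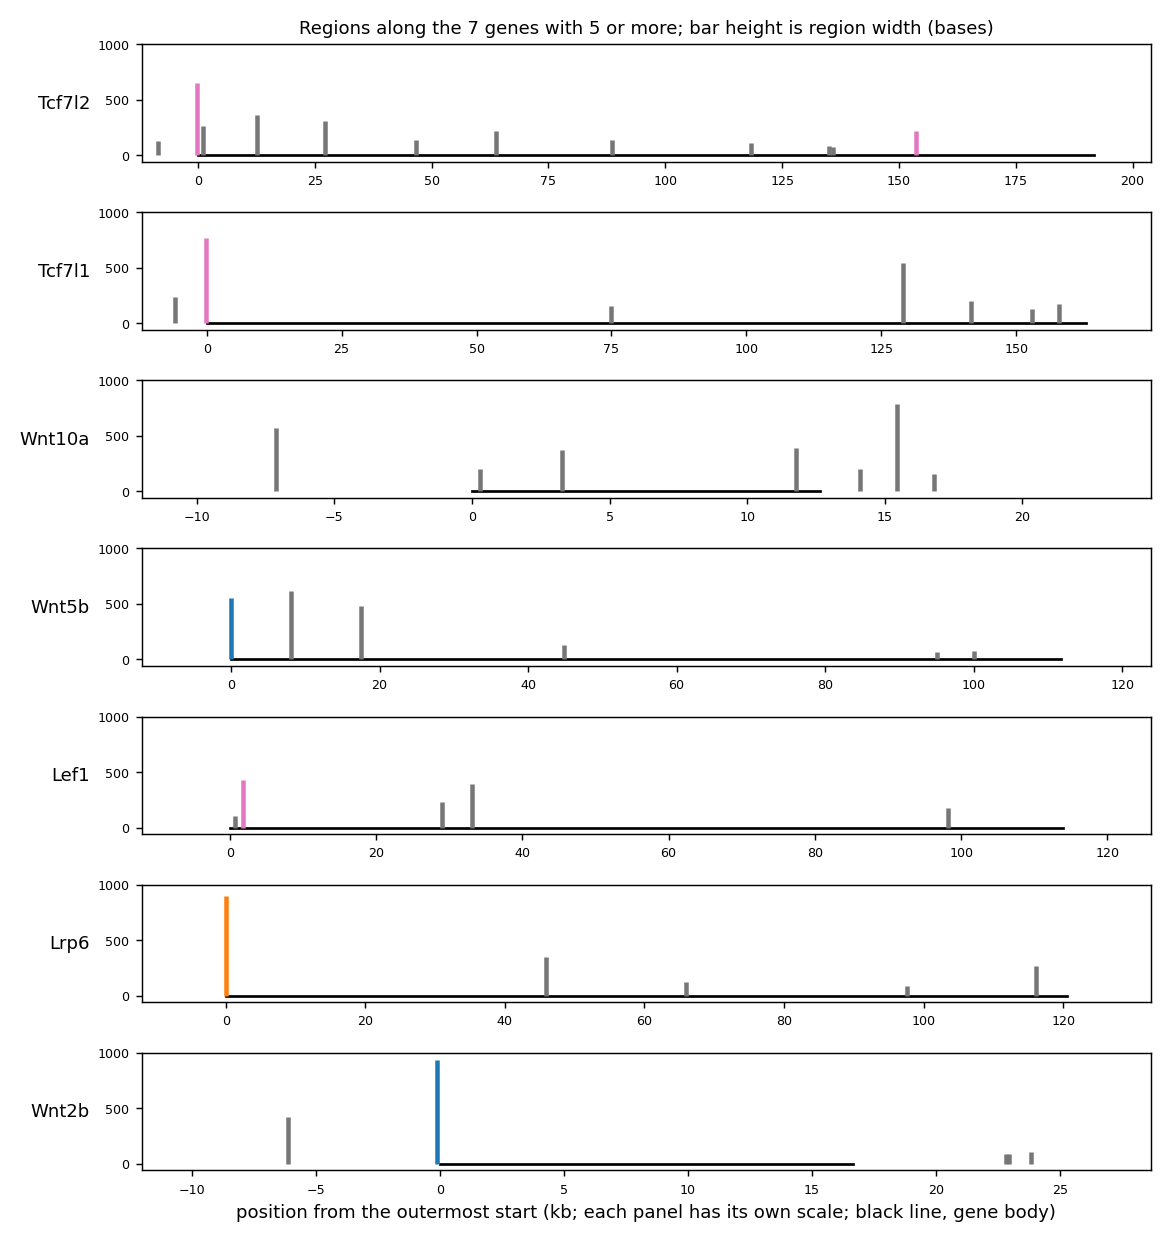
Regions along the 7 genes with 5 or more, with distance from the outermost start in kb on the x axis (a scale for each panel) and region width in bases as the height of each bar. Coloured bars are start regions, grey bars are all others and the black line is the gene body, and the regions of Wnt10a crowd within and just beyond a short body.

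Of the 113 regions, 26 were promoter regions (23.0%, exact 95% interval 15.6 to 31.9), compared with 25.4% of the 42093 regions given to any protein-coding gene. The promoter regions had a median width of 534 bases (range 95 to 1023) and a median GC content of 70.9%, against 509 bases and 65.3% over all promoter regions. The other 87 had a median of 201 bases and 58.3% GC, against 178 bases and 52.2%. Regions of 1 gene share their locus, and the intervals cover counting error only.

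By the wider definition 32 regions were start regions, with a median width of 625.5 bases, and 81 lay elsewhere, with a median width of 177 bases and a median distance of 11781 bases from a start. Of these 81, introns held 41, exons or UTRs 15 and flanking sequence 25. Soft-masked repeats made up more than 50% of only 1 of the 113 regions, against 2.98% of all regions.

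CpG content was compared between starts with and without a region. The 30 genes with a start region had a median of 5.54 CpG per 100 bases in the promoter window of their outermost start (range 1.27 to 9.72), and the 15 without had 2.997 (0.999 to 6.45). The ranges overlap. Over all protein-coding genes the medians were 3.54 for 13084 genes with a start region and 0.817 for 8854 without, so the medians of the 45 genes were higher on both sides. By family, the median was 5.18 for the Wnt genes, 5.40 for the Frizzled genes and 2.23 for the Dkk genes. The part of CpG content in the family counts was not tested.

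Several Wnt genes lie side by side, as remnants of an old gene cluster. Wnt6 and Wnt10a on chromosome 1 are 6.19 kb apart and had 2 and 7 regions. Wnt3a and Wnt9a on chromosome 11 are 16.2 kb apart and had 4 and 2, with a start region at both. Wnt3 and Wnt9b, 24.3 kb apart on the same chromosome, had 2 each, but only Wnt9b had a start region. Wnt1 and Wnt10b on chromosome 15, 11.7 kb apart, had 0 and 1. Of the 4 pairs, 1 had a start region at both genes, 2 at a single gene and 1 at neither.

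A TCF/LEF word was present in 14 of the 113 regions, or 12.4% (exact 95% interval 6.94 to 19.9), and in 12.9% of all regions. With all regions weighted to the widths of the 113 the share was 13.8%, and with GC content weighted as well it was 10.1%. The share was thus near that of other regions. The 14 regions held 17 words and belonged to 10 genes, which were Axin2, Dkk2, Fzd7, Lrp6, Tcf7, Tcf7l2, Wnt3, Wnt5a, Wnt5b and Wnt11. Of these regions 7 lay in introns and 5 were start regions.

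Axin2 was the exception among them. Each of the other 13 regions held 1 word, and the Axin2 start region held 4, at 81, 444, 886 and 906 bases downstream of the start and all on the plus strand, the strand of the gene. As the lines above show, 2 read CTTTGAT and 2 read CTTTGAA, and the last pair lies 20 bases apart. Only 18 of all 57124 regions (0.0315%) held 4 or more, and 10 of the 3379 regions of 800 bases or more did (0.296%). The first word lies in the UTR of the first exon and the other 3 in the first intron.

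Words of ETS and Krüppel-like factors were counted too, because the study examined these families in mTECs. An ETS word (CCGGAAG or AGGAAG) was present in 31 regions, 27.4% (exact 95% interval 19.5 to 36.6), against 34.5% of all regions and 36.3% after weighting by width and GC content. In regions from 400 to under 800 bases, a class picked out after the values were seen, the share was 24.0% (6 of 25, interval 9.36 to 45.1) against 59.8%. In the widest class, of 800 bases or more, it was found in 6 of 10 (interval 26.2% to 87.8%) against 74.7%.

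Fzd7 and Wnt8a each had a region with 3 ETS words, the most of any of the 113. A KLF word (GGGTGTGG or GGGCGTGG) was present in 13 regions, 11.5% (interval 6.27 to 18.9), against 9.19% of all regions and 12.1% after the same weighting. Of the 11 start regions of Wnt ligand genes, 1 held any word of the 3 kinds, that of Wnt2b, with 1 KLF word. The matching share over all start regions is not given here, so 1 of 11 cannot be called low or high. A word absent from a region says only that its letters are not there.

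**Figure D4:**
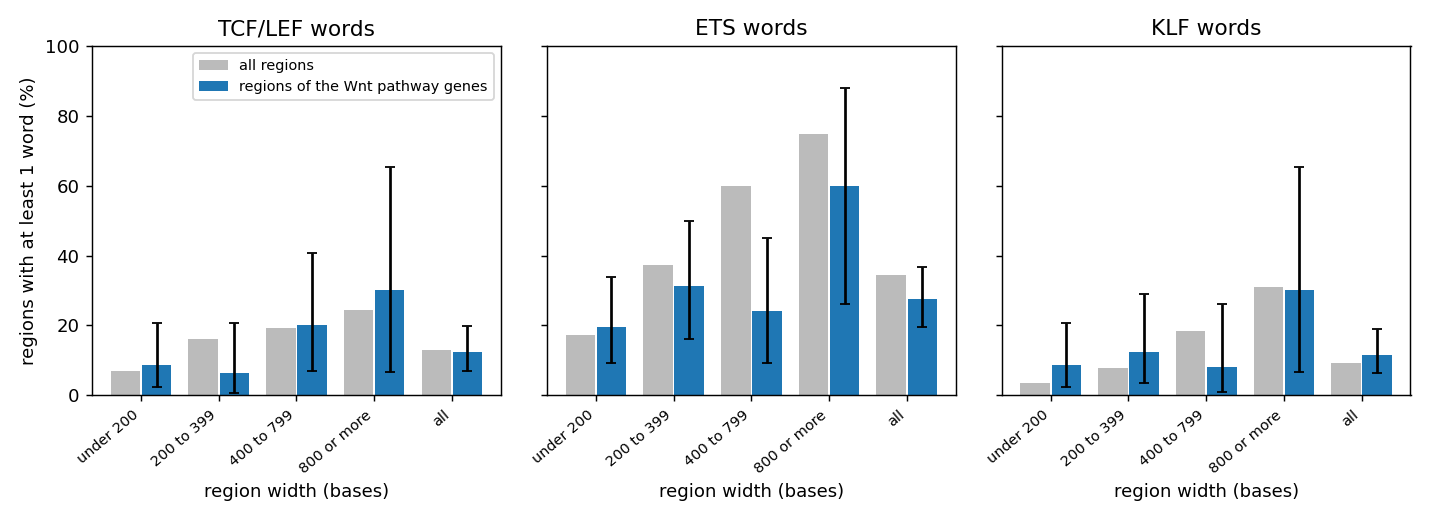
Share of regions with at least 1 TCF/LEF, ETS or KLF word (y axis, %) by region width in bases (x axis), for all 57124 regions in grey and the 113 regions of the Wnt pathway genes in blue, with exact 95% intervals as error bars. The widest gap is for ETS words from 400 to under 800 bases, 24.0% against 59.8%, while the TCF/LEF shares of the 2 sets lie close in most classes.

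The rest of the pathway was examined through 47 other genes. A start region was found at 37 of them (59.6% of all protein-coding genes), a promoter region at 30 (48.6%) and any region at 45 (69.9%), with 171 regions in all and a median of 3 per gene. Genes of signal transmission were among those with one, such as Ctnnb1, which codes for β-catenin, Dvl1, Dvl2 and Dvl3, which relay the receptor signal, Gsk3a and Gsk3b, kinases of the destruction complex, and Wls and Porcn, which the secreting cell needs to release Wnt ligands. The receptors Lgr4, Lgr5 and Lgr6, which bind R-spondins, had one as well.

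The 10 without a start region were Apc2, Frzb, Notum, Rspo1, Rspo2, Rspo3, Rspo4, Sost, Sostdc1 and Tle2. Of the 9 secreted proteins on the list, a group formed after the values were seen, 8 were without one and Wif1, an antagonist, had one. Of all protein-coding genes, 59.6% had a start region. At Rspo3 and Frzb the closest centre lay only 118 and 211 bases from a start, so the window edge matters there. At the others without one it lay from 1069 bases (Rspo2) to 43639 bases (Rspo1) away. The 4 R-spondins amplify Wnt signals, Frzb, Sost and Sostdc1 oppose them and Notum inactivates the ligands.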

How the data were processed

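ATAC-seq libraries of 8 sorted mTEC samples were analysed by the authors, who aligned reads to mm10 with Bowtie2, removed duplicates, called broad peaks with MACS2 at a cutoff of 0.01 and merged them with bedtools. Whether peaks were called per sample is not given in the sources used here. Reads were counted with featureCounts 2.0.3, per the file headers. The deposited values used are the start, end and width of each region in bases. The 8 count columns match no sample label and were not used in any step, so the planned edgeR comparison of the groups was not run and depth is not analysed here.

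Regions were set against GENCODE M21 and GRCm38, and 0 chromosomes had a region past the reference end. Functions were tested on simulated data. Shares have exact 95% binomial (Clopper-Pearson) intervals. No test was run between groups. The rule for named genes was that all 45 are accounted for, with coordinates for genes with a promoter region and for those with the most regions, and sequences for regions of at most 300 bases with a TCF/LEF word, from which regions in UTRs, such as that of Wnt11, were left out. The coverage of a start, the coordinates of other start regions and the windows of 27 bases were added after the data were seen. Coordinates of regions on chromosome 18 are not printed. The genes and lists were chosen with earlier results of these data known. Python 3.11.15, pandas 2.3.3, scipy 1.17.1, pysam 0.24.0 and matplotlib 3.10.9 were used.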

Additional observations from a re-analysis of the deposited data

How the results depend on the processing

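Of 25 alternatives over 6 results, 20 left the value within 1.5 times the original count or within its interval, and 5 moved it. With regions of at least 200 bases alone, the regions given to the 45 genes fell from 113 to 67, and the share at promoters went from 23.0% to 34.3%. That share became 45.1% when a centre within 2500 bases of a start counted. The share of regions with a TCF/LEF word fell from 12.4% to 3.54% when CTTTGAT alone was searched, against 2.63% of all regions. The median width of 242 bases (95% interval 190 to 329) became 534 bases in promoter regions only. Each of these follows from the narrower or wider definition. The count of genes with a promoter region, 24, ran from 21 to 35 under its alternatives and was 30 with coverage of a start added, a definition chosen after seeing the data. The share of all protein-coding genes moved with it, from 48.6% at 24 to 44.4% at 21, 65.4% at 35 and 59.6% at 30. Genes with any region ran from 34 to 42. No wider definition could have moved that count, since 1.5 times its original 39 exceeds all 45 genes.

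No paired analysis was possible because nothing in the names of the per-sample columns ties them to a labelled replicate. For the same reason the alternatives planned for the group comparison (another test, other normalizations, no filter, the replicate block and leaving out samples) were not run. What depth limits is not analysed here.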
